A study of Mus musculus with 30 samples.

Results

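The genes described here are 10 signals that call leukocytes into a tissue or hold them there: the secreted chemokines Ccl2, Ccl3, Ccl4, Ccl12, Cxcl1 and Cxcl10, the membrane-anchored chemokine Cxcl16, the macrophage growth factor Csf1, and the adhesion molecules Icam1 and Vcam1. They were taken by gene symbol from the count tables of both experiments, as 10 of 42439 gene identifiers, with the counts of all transcripts of a gene summed. RNA came from the neural retina of mice of genotype Abca4-/-Rdh8-/- on a C57BL/6J background, males and females, aged 4 to 6 weeks. Every group carries this double knockout, which removes proteins that photoreceptors use to dispose of all-trans-retinal, and wild-type mice were not analysed here. Housing had a cycle of 12 h dark and 12 h dim light (at most 10 lux). Light stands for 30 min at 10000 lux, after which 24 h passed before collection. The injection of drug, or of the solvent DMSO, into the peritoneal cavity preceded the light by 30 min.

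There were 30 libraries in 10 groups of 3. In the mixture experiment, mice given DMSO were kept from the bright light or exposed to it, and others were exposed after one of the mixtures BMT and MDB. Bromocriptine (BRM, which activates D2-type dopamine receptors) and metoprolol (MTP, a blocker of beta-1 adrenergic receptors) were in both. Their partner was tamsulosin (TAM) in BMT and doxazosin (DOX) in MDB, and each of these blocks alpha-1 adrenergic receptors. In the single-drug experiment, with no-light and light groups of its own on DMSO, each of the 4 drugs was given alone before light. There was no drug-treated group kept from light, and doses were not at hand. The experiments were done and analysed apart, so each was fitted by itself.

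Libraries of the mixture experiment held 18.5 to 25.8 M counts, and those of the single-drug experiment held between 12.0 and 22.2 M. Levels are in CPM, counts per 1 M after scaling of library sizes, given for replicates 1, 2 and 3 in that order. The labels leave unsaid if a library is 1 mouse, so p-values measure the spread between libraries. Whole-gene counts of the disrupted genes were present in every library (Abca4 at 316 to 922 CPM, Rdh8 at 19.2 to 46.9 CPM) and cannot check a deletion inside a gene. Lens genes varied between libraries: the mean log2 CPM over 6 fibre genes, called the lens fibre score, ranged from -1.65 to 7.69. In the mixture experiment it stood at 7.58 in replicate 2 of the no-light group and at 0.905 and 1.02 in the others of that group. It was 6.41 to 6.88 in all MDB and 6.15 to 7.69 in all BRM libraries, beside 0.197 to 5.01 and 5.37 to 5.49 in the light groups of their experiments.

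Chemokines are small proteins that leukocytes follow through G protein-coupled receptors. Ccl2 and its mouse relative Ccl12 are ligands of Ccr2, the receptor that brings monocytes out of the blood. Ccl3 and Ccl4 are inflammatory chemokines that macrophages and microglia make, Cxcl1 binds the neutrophil receptor Cxcr2, Cxcl10 is an interferon-induced ligand of Cxcr3, and Cxcl16 is a transmembrane ligand of Cxcr6. Csf1 keeps microglia and macrophages alive through Csf1r. Icam1 and Vcam1 are immunoglobulin-type surface proteins that bind leukocyte integrins, Icam1 those with the beta-2 chain and Vcam1 the integrin of the alpha-4 and beta-1 chains. In the retina, microglia, Müller glia and vessels are known sources of such signals after photoreceptor injury.

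Ccl2 and Ccl12 lie near each other on chromosome 11 (Ccl2, ENSMUSG00000035385, 82035571 to 82037453, plus strand; Ccl12, ENSMUSG00000035352, 82101845 to 82103400, plus strand; build GRCm38.p3 of the deposited tables). Ccl3 (ENSMUSG00000000982, 83647844 to 83649355, minus strand), Ccl4 (ENSMUSG00000018930, 83662584 to 83664683, plus strand) and Cxcl16 (ENSMUSG00000018920, 70453983 to 70459984, minus strand) are on the same chromosome. Cxcl1 (ENSMUSG00000029380, 90891241 to 90893115, plus strand) and Cxcl10 (ENSMUSG00000034855, 92346638 to 92348889, minus strand) are on chromosome 5. Csf1 (ENSMUSG00000014599, 107741048 to 107760469) and Vcam1 (ENSMUSG00000027962, 116110020 to 116129688) are both on the minus strand of chromosome 3, and Icam1 (ENSMUSG00000037405, 21015960 to 21028797, plus strand) is on chromosome 9. Ccl2, Cxcl10, Cxcl16 and Icam1 overlap a gene on the opposite strand (Gm17268, Art3, Zmynd15 and Gm20603). Libraries were strand-marked, but whether the counting used strand is not known from the labels, so reads of these pairs may not be told apart.

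Promoter sequences were at hand for 6 of the 10 genes, from RefSeq with build GRCm38.p6, as 250 bases before the start of the gene and 50 bases from it on. Those of 4 genes that moved together are shown, with Ccl3 as one that did not move with them, and Cxcl1 is described without its sequence. Each runs 5′ to 3′ on the strand of the gene, and capitals mark letters that match a searched motif. The motifs were the kappaB consensus GGGRNWYYCC, the AP-1 site TGANTCA, the core of the interferon-stimulated response element and the STAT site TTCNNNGAA on both strands, and TATAAA on the strand of the gene. In these letters R is A or G, W is A or T, Y is C or T and N is any base. Stretches that differ from a motif by a letter, such as tggaaattcc in the Icam1 promoter, were not counted as matches.
Cxcl10, chr5:92348840-92349139, minus strand: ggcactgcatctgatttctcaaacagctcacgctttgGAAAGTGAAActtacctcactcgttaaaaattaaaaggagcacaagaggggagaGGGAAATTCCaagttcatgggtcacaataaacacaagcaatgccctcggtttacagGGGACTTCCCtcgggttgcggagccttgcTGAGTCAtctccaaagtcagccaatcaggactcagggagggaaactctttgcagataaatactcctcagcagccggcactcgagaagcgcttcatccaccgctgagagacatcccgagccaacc
Csf1, chr3:107760420-107760719, minus strand: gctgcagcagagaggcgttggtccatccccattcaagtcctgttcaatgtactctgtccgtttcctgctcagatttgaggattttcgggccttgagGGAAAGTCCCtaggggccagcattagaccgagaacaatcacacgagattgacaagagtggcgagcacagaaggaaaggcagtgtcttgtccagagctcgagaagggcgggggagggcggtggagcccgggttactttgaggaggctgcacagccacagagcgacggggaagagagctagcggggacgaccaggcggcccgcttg
Ccl12, chr11:82101595-82101894, plus strand: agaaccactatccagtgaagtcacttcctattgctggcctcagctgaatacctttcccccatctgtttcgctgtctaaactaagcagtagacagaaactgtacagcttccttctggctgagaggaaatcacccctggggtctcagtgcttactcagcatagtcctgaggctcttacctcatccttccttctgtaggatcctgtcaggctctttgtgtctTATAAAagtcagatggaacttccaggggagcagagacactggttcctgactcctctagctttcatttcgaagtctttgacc
Icam1, chr9:21015690-21015989, plus strand: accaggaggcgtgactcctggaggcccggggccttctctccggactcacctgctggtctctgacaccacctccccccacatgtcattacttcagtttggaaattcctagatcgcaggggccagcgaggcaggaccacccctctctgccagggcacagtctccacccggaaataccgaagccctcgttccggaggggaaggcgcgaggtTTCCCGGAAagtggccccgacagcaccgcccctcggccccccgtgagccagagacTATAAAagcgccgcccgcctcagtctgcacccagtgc
Ccl3, chr11:83649329-83649628, minus strand: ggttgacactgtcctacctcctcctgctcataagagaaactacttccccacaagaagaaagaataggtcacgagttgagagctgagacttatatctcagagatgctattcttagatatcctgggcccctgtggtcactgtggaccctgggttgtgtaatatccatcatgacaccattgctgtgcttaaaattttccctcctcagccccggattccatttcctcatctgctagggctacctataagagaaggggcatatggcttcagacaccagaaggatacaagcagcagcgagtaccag
Cxcl10 carried the most matches: kappaB matches 159 and 103 bases before its start, an AP-1 match 74 bases before it and an interferon-response core 213 bases before it. Csf1 had 1 kappaB match, 154 bases before the start. Ccl12 had a TATAAA match 31 bases before its start. Icam1 had a STAT-type match 42 bases before the RefSeq start and TATAAA 14 bases after it; the nearest start in the deposited tables lies 20 bases from the RefSeq one. Cxcl1 held overlapping kappaB matches 71 and 70 bases before its start, and Ccl3 held no match to any of the 5 motifs. A kappaB match was present in 3 of the 6 promoters (Cxcl1, Cxcl10 and Csf1) and in 4.51% of all 32851 promoters of the table. The other shares over all promoters were 7.81% for AP-1, 3.44% for the interferon-response core, 8.3% for the STAT site and 8.32% for TATAAA. Such matches describe letters in these windows, not binding. No promoter was at hand for Ccl2, Ccl4, Cxcl16 and Vcam1.

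The comparison of light with no light concerns light alone, without drug. In both experiments light raised Ccl2, Ccl12, Cxcl16, Csf1, Icam1 and Vcam1, and it raised Cxcl10 in the single-drug experiment. Ccl3 and Ccl4 passed the test in neither. The rises differed in scale. Ccl2 and Ccl12 came up from a few counts in total. Csf1, Icam1 and Vcam1 rose by log2 fold changes between 1.5 and 2.67, and Cxcl16 by less than 1. Of 10 genes, 9 passed the filter on low counts in both experiments and were tested, and Cxcl1 did not pass. Ccl2 and Ccl12 had too few counts without light to pass there, so for them passing was tied to being high after light. The members were also chosen with earlier results of these data known. Their counts and medians beside those of all genes are therefore a description and no independent support. With edgeR's quasi-likelihood test at an adjusted p under 0.05, 6 of the 9 were higher after light in the mixture experiment, where 7.75% of all 16007 genes tested were higher. In the single-drug experiment 7 of the 9 were higher, against 11.4% of 16249 genes, and in neither experiment was a tested member lower. The 6 genes called in the mixture experiment were all called in the single-drug experiment. The median log2 fold change of the 9 was 1.5 in the mixture and 2.47 in the single-drug experiment, beside 0.007 and 0.018 over all genes tested. Light and no-light libraries did not overlap for 7 of the 9 in the mixture experiment (16.4% of all genes were apart with light higher) and for 8 of the 9 in the single-drug experiment (20.1%).

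**Figure D1:**
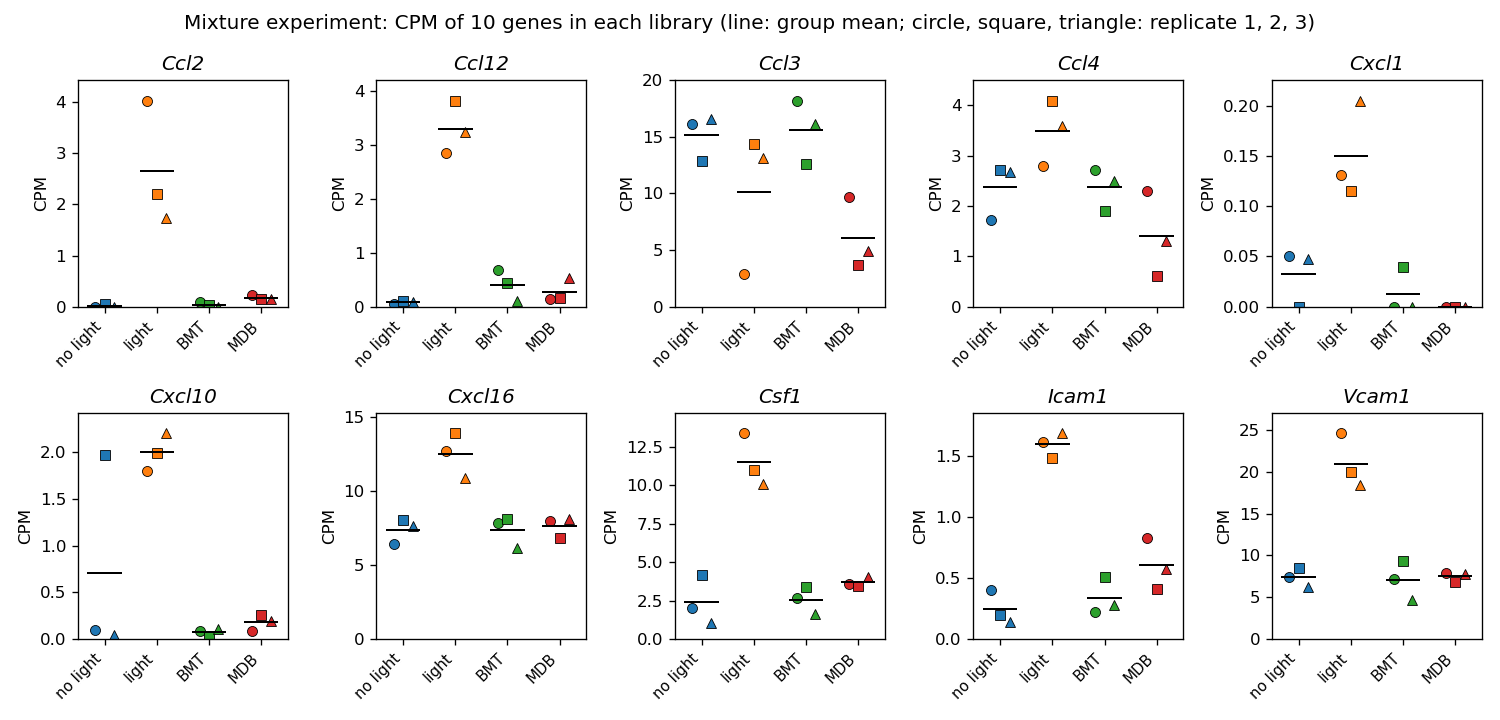
Expression of the 10 genes in the mixture experiment, in CPM (vertical axis, own scale for each gene), with 1 point per library and a line at the mean of each group of 3. For Ccl2, Ccl12, Cxcl16, Csf1, Icam1 and Vcam1 the 3 light libraries lie above all others, and for Cxcl10 1 no-light library, at 1.97 CPM, lies among the light libraries.

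The monocyte chemokines Ccl2 and Ccl12 were close to absent without light. In the mixture experiment Ccl2 stood at 0, 0.0494 and 0 CPM without light, and after light at 4.03, 2.21 and 1.74 CPM. This was 1 count over the 3 no-light libraries and 184 over the light libraries, a ratio of 164 after scaling, with an exact 95% interval of 29.0 to 6500 that covers counting error only. Ccl2 in the single-drug experiment went from 0, 0.234 and 0 CPM to 3.71, 3.31 and 4.67 CPM, from 5 counts to 272 (ratio 47.6, interval 20.2 to 148). All 6 light libraries lay above all 6 no-light libraries, and the adjusted p was 0.000161 and 0.00789. The size of the fitted fold change of Ccl2 rests on so few no-light counts that the ratio of counts is given in its place.

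Ccl12 had, in the mixture experiment, 0.0509, 0.0987 and 0.0952 CPM without light, and light brought it to 2.85, 3.82 and 3.23 CPM. The log2 fold change was 5.24 ± 0.67 (SE, adjusted p = 0.00037). In the experiment with single drugs it went from 0.148, 0.14 and 0.105 CPM to 5.57, 5.22 and 4.42 CPM, which is 5.2 ± 0.91 in log2 fold change (adjusted p = 0.000861). The counts behind these values rose from 5 to 228 and from 8 to 351. The light libraries were even within each experiment, and all lay far above the no-light level.

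Of the tested members, Cxcl10 had the largest gap in fold change between the experiments. In the single-drug experiment it stood at 0, 0.0468 and 0.0525 CPM without light and at 2.28, 3.08 and 2.89 CPM after light, 6.13 ± 1.24 higher on the log2 scale (adjusted p = 0.00231), from 2 counts to 190 (ratio 83.1, interval 22.7 to 691). In the mixture experiment the light libraries were as even, at 1.8, 1.99 and 2.2 CPM, but the no-light libraries stood at 0.102, 1.97 and 0.0476 CPM. The high one is replicate 2, which is the library with the lens fibre score of 7.58. Lens content as the cause of its high value was not tested. With it, the log2 fold change was 1.49 ± 0.86 and not called by edgeR (adjusted p = 0.305). With every library kept, the rise was called by limma voom (2.94, adjusted p = 0.0232). It was also called with the lens fibre score as a covariate (2.63, adjusted p = 0.0417). Without replicate 2, which was singled out by its own Cxcl10 level, the value was 4.64 (adjusted p = 0.000591). Over 15 alternatives the adjusted p ranged from 0.000591 to 0.564. The difference of the light effect between the experiments, mixture minus single-drug, was -4.64 ± 1.64 on the log2 scale for Cxcl10 (unadjusted p = 0.00952, adjusted p = 0.188), and -1.51 without that library. In a joint fit of all 10 groups 0 of the 9 tested members, and 0 of 16645 genes, differed in their light effect by edgeR. At an unadjusted p under 0.05 that joint fit held 1 of the members and 2518 genes, limma voom called 11 genes and DESeq2 410, and no member was among the calls of either.

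Cxcl1, the neutrophil chemokine, did not pass the filter in either experiment. After light it stood at 0.131, 0.115 and 0.205 CPM with the mixtures' controls, and at 0.169, 0.42 and 0.165 CPM with those of the single drugs. Without light the values were 0.0509, 0 and 0.0476 CPM, and 0.0493, 0 and 0 CPM. These are 10 against 2 counts (ratio 4.45, interval 0.947 to 41.7) and 17 against 1 (ratio 14.9, interval 2.33 to 622), so a difference was not detectable at this depth in the mixture experiment.

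Cxcl16 was well expressed without light and rose by the smallest step of the called genes. Its libraries of the mixture experiment stood at 6.41, 8.05 and 7.66 CPM without light and at 12.7, 13.9 and 10.9 CPM with it, a change of 0.76 ± 0.15 on the log2 scale (adjusted p = 0.00546). In the experiment with single drugs it went from 6.61, 6.83 and 7.19 CPM to 12.2, 13 and 11.8 CPM, at 0.85 ± 0.12. The groups lay apart in both. Most Cxcl16 counts, 62.4% over the mixture experiment, belong to a transcript of the nonsense-mediated decay type, Cxcl16-002. Over the 3 libraries of a group, its counts went from 266.8 to 504.3 with light in the mixture and from 237.8 to 582.8 in the single-drug experiment. Those of the protein-coding Cxcl16-001 went from 157 to 345.9 and from 178.8 to 265. The authors' normalized FPKM tables hold Cxcl16-001 alone, and with those values the Cxcl16 call was lost: 0.53 on the log2(FPKM + 1) scale (adjusted p = 0.15) in the mixture and 0.26 (adjusted p = 0.545) in the single-drug experiment. Splitting of reads between these overlapping transcripts is an estimate.

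Ccl3 and Ccl4 were expressed without light and did not pass the test after it. The mixture experiment had Ccl3 at 16.1, 12.9 and 16.6 CPM without light and at 2.85, 14.4 and 13.1 CPM with it. Light replicate 1 was the lowest of all 30 libraries for Ccl3, and the other light libraries lay within the no-light range. The log2 change was -0.59 ± 0.48 (adjusted p = 0.477). Ccl3 in the single-drug experiment stood at 12.2, 9.4 and 9.34 CPM without light and 11.2, 10.1 and 14.1 CPM with it, with a log2 change of 0.19 ± 0.27 (adjusted p = 0.653). Ccl4 had 1.73, 2.72 and 2.67 CPM without light and 2.8, 4.09 and 3.59 CPM after it in the mixture experiment, and 1.78, 1.26 and 1.84 against 2.74, 2.84 and 2.6 CPM in the single-drug experiment. Every light library of Ccl4 lay above every no-light library of its experiment, yet the log2 changes of 0.56 ± 0.38 (adjusted p = 0.387) and 0.75 ± 0.32 (adjusted p = 0.101) were not called. A miss of the threshold does not show that the level stayed the same.

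Csf1, the growth factor of the macrophage lineage, rose in both experiments. In the mixture experiment it stood at 2.03, 4.2 and 1.05 CPM without light and at 13.4, 11 and 10.1 CPM after light, with 2.25 ± 0.41 as log2 fold change (adjusted p = 0.00339). In the single-drug experiment it went from 2.27, 2.34 and 2.73 CPM to 11.6, 15.5 and 13.6 CPM, at 2.47 ± 0.36. The lowest light library lay at more than 2 times the highest no-light library in both. Its main transcript, Csf1-001, held 89.2% of its counts.

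Both adhesion molecules rose, from different starting levels. The mixture experiment had Icam1 at 0.407, 0.197 and 0.143 CPM without light and at 1.62, 1.49 and 1.69 CPM with it, at 2.67 ± 0.45 on the log2 scale (adjusted p = 0.00243), and went from 15 to 109 counts. Icam1 in the single-drug experiment went from 0.444, 0.561 and 0.21 CPM to 2.53, 2.1 and 3.27 CPM, also at 2.67 ± 0.55. Icam1 therefore remained a gene of few counts even after light. Vcam1 had the highest CPM of the 10 genes after light: 24.6, 19.9 and 18.4 CPM, against 7.42, 8.49 and 6.28 CPM without light, in the mixture experiment. In the experiment with single drugs Vcam1 went from 8.78, 8.09 and 8.4 CPM to 26.1, 32.4 and 27.6 CPM. The log2 fold changes were 1.5 ± 0.22 (adjusted p = 0.000876) and 1.77 ± 0.25 (adjusted p = 0.000192).

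Per transcript length, the order of the genes differs from that in CPM. In FPKM from the eXpress tables, summed over the transcripts of a gene, Ccl3 had the highest level after light in both experiments (15.6 ± 9.7 and 18.5 ± 3.03, SD, n = 3). Cxcl16 followed in the mixture experiment at 9.19 ± 0.89, Vcam1 at 7.31 ± 1.27, Ccl12 at 7.26 ± 1.12 and Ccl4 at 6.25 ± 1.14. The ranges of mean ± SD of neighbours in that order overlapped. Below them came Ccl2 at 3.86 ± 1.84, Csf1 at 3.4 ± 0.58, Cxcl10 at 2.17 ± 0.136, Icam1 at 0.741 ± 0.0341 and Cxcl1 at 0.182 ± 0.0663 FPKM. The order after Ccl3 in the single-drug experiment was Ccl12 at 11.4 ± 1.35, Vcam1 at 10.2 ± 1.31 and Cxcl16 at 9.8 ± 0.744 FPKM, within their SDs of each other. So Ccl3, which like Ccl4 passed the test for light in neither experiment, had the highest mean of the 10 per length after light. This did not hold in every library: in light replicate 1 of the mixture experiment Ccl3 stood at 4.47 FPKM and Cxcl16 at 8.87 FPKM.

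Since CPM is a share of all RNA counted, other RNA moves it. Fewer cells of a type and less RNA per cell cannot be told apart in such libraries. The summed level of 10 rod genes went from 71900 to 85400 CPM without light to 40800 to 49600 CPM after it in the mixture experiment, and from 80400 to 86200 to 26100 to 36500 CPM in the single-drug experiment. Its part in the rises was not tested.

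Marker genes of leukocytes and vessels were summed beside these signals. The 10 microglia and macrophage genes, all detected in every library, summed to 50.5 to 52.6 CPM without light and 43.5 to 50.7 CPM after it in the mixture experiment, and to 47.6 to 55.6 and 55.9 to 61.8 CPM in the single-drug experiment. Of these, Cd68 was higher and P2ry12 lower after light in both. The 7 monocyte genes summed to 25.2 to 31.0 CPM without light and 49.7 to 62.0 CPM after it, and to 31.8 to 43.8 and 54.8 to 60.3 CPM, but most of that sum was Fn1, a matrix gene many cells make (23.9 to 30.8 CPM without light and 44.7 to 60.0 CPM after it in the mixture experiment). Ccr2, the receptor for Ccl2 and Ccl12 that defines these monocytes, was at 0.175 CPM or less in every no-light and light library of both experiments, and Ly6c2 at 0.422 CPM or less. The 9 neutrophil genes summed to at most 1.44 CPM in any no-light or light library, with 4 to 8 of them at 0, and the 6 T cell genes to at most 0.789 CPM. The 9 endothelial genes summed to 140 to 144 CPM without light and 228 to 280 CPM after it in the mixture experiment. In the single-drug experiment the sums were 122 to 178 and 242 to 369 CPM. Of the 9, Vwf and Kdr were called higher in both, and the others were not called. The median log2 change of the 9 was 0.14 in the mixture and 0.27 in the single-drug experiment. The part of this summed rise in the rises of Icam1 and Vcam1 was not tested. The summed level of the 4 genes of the astrocyte list, which holds Gfap, went from 42.3 to 92.7 CPM without light to 281 to 367 CPM after it in the mixture experiment, and from 46.1 to 83.6 to 305 to 341 CPM in the single-drug experiment. In that list Gfap alone was called higher, in both experiments, and S100b was called lower in the single-drug experiment. The median log2 change over the list was -0.05 in the mixture and -0.07 in the single-drug experiment. The summed level of the 8 Müller glia genes went from 2230 to 3390 to 1710 to 1770 CPM, and from 2600 to 2890 to 2220 to 2380 CPM. These genes did not move as 1: Slc1a3 was called higher and Glul lower in both experiments, and Rlbp1 lower in the mixture experiment. Their median log2 change was -0.15 in the mixture and 0.24 in the single-drug experiment. With treatment the astrocyte list summed to 60.5 to 112 CPM with the mixtures and 64.8 to 284 CPM with single drugs, and the part of these glial lists in the results was not tested.

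**Figure D2:**
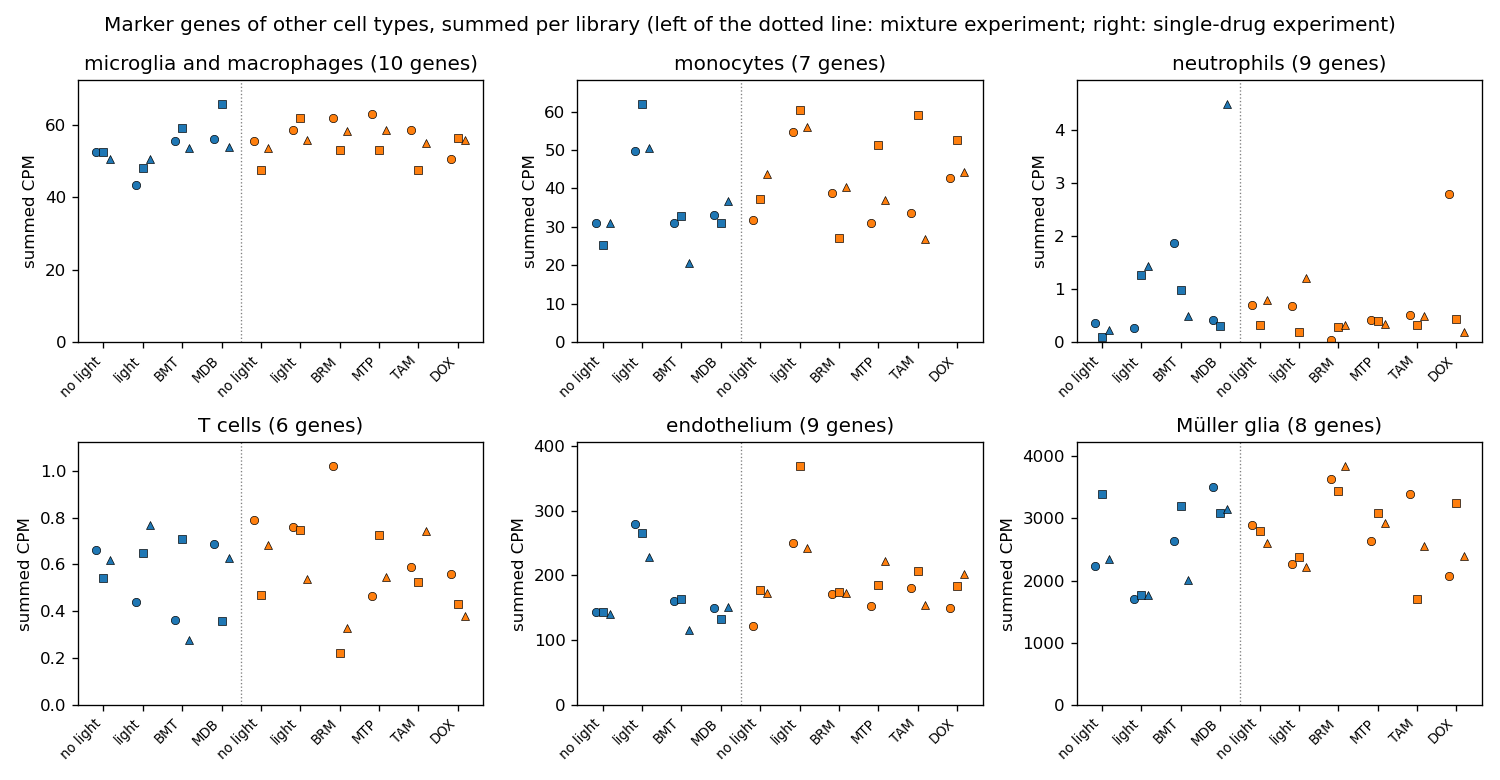
Summed CPM (vertical axis, own scale for each list) of marker genes of 6 cell types in every library, by group, with circle, square and triangle for replicates 1, 2 and 3. The sums for neutrophils and T cells stay under 5 CPM in every library, and those for endothelium are highest in the light groups of both experiments.

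The next comparisons ask whether these genes were lower when drugs were given before light. With at least 1 treatment 7 of them were: Ccl2, Ccl12, Cxcl10, Cxcl16, Csf1, Icam1 and Vcam1, which are the genes that light raised in at least 1 experiment. Cxcl16, Csf1 and Vcam1 were lower than after light alone with all 6 treatments. No member was higher with any. Against light alone 7 of the 9 tested members were lower with BMT (9.78% of all genes tested), 5 with MDB (5.93%), 6 with BRM (7.32%), 6 with MTP (4.91%), 4 with TAM (4%) and 3 with DOX (5.06%). Leaving out 1 library gave 3 to 5 members with MDB (3 without light or MDB replicate 2), 2 to 5 with BRM (2 without BRM replicate 2, 3 without light replicate 2), 2 to 3 with MTP (without any 1 light or MTP library), 3 to 6 with TAM and 1 to 3 with DOX (1 without light replicate 2 or DOX replicate 1). Treatments of an experiment are compared with the same 3 light libraries, which also gave the rise with light, so these counts are not independent of each other or of that rise. For the fits that left out 1 library, shares over all genes are not given. A moved count is therefore not shown to be particular to the members. Treated and light libraries did not overlap, with the treated ones lower, for 8 of the 9 members with BMT (21.6% of all genes), 8 with MDB (16.9%), 8 with BRM (19%), 7 with MTP (15.7%), 7 with TAM (13.9%) and 8 with DOX (15.5%). Over the 9 members the median log2 change was -2.16 with BMT, -1.48 with MDB, -1.65 with BRM, -1.67 with MTP, -1.45 with TAM and -1.26 with DOX, and over all genes tested it lay between -0.031 and 0.002.

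**Figure D3:**
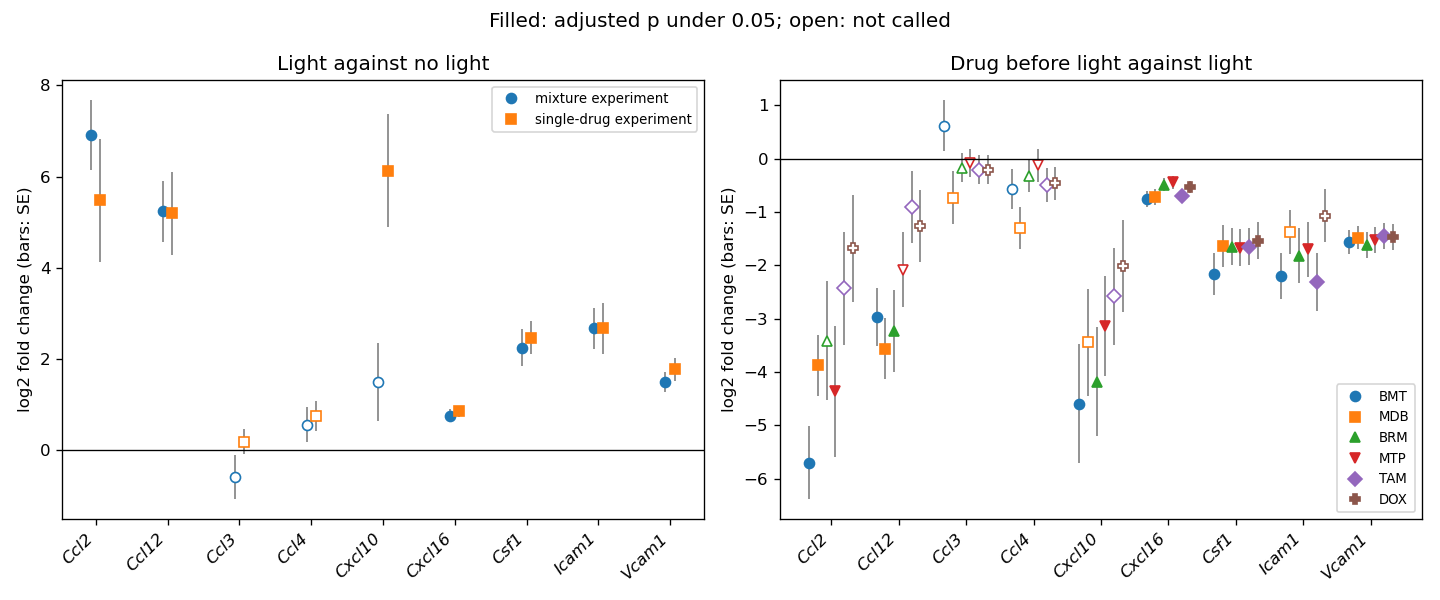
Log2 fold change (vertical axis) with SE (bars) of the 9 tested genes, for light against no light in each experiment (left) and for each treatment before light against light alone (right); filled symbols have an adjusted p under 0.05. Csf1, Cxcl16 and Vcam1 are filled for all 6 treatments, while Ccl3 and Ccl4 are open throughout.

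Vcam1 had similar values with all 6 treatments. With BMT it stood at 7.22, 9.37 and 4.65 CPM and with MDB at 7.91, 6.81 and 7.78 CPM, against 18.4 to 24.6 CPM after light alone. With BRM the values were 10.3, 9.44 and 8.64 CPM, with MTP 10.1, 10.1 and 9.75 CPM, with TAM 9.07, 15.6 and 6.8 CPM, and with DOX 7.61, 9.64 and 14.3 CPM, against 26.1 to 32.4 CPM after light alone. All 18 treated libraries lay under the lowest light library of their experiment. TAM replicate 2 and DOX replicate 3 were the highest of them. The log2 changes lay between -1.45 ± 0.24 (TAM, adjusted p = 0.00194) and -1.62 ± 0.24 (BRM, adjusted p = 0.00142), with -1.56 ± 0.22 for BMT, -1.48 ± 0.22 for MDB, -1.53 ± 0.24 for MTP and -1.47 ± 0.24 for DOX. In a fit of only the TAM and light groups the call of Vcam1 was lost (adjusted p = 0.0532, range over 15 alternatives 9.04e-07 to 0.0532). The summed level of the 9 endothelial genes was also lower with treatment, at 115 to 164 CPM with BMT, 132 to 151 with MDB, 172 to 174 with BRM, 153 to 223 with MTP, 155 to 207 with TAM and 149 to 202 CPM with DOX, and its part in the values of Vcam1 and Icam1 was not tested.

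Csf1 was also lower in all 18 treated libraries than in any light library. It stood at 2.68, 3.4 and 1.61 CPM with BMT and at 3.59, 3.43 and 4.06 CPM with MDB, beside 1.05 to 4.2 CPM without light. With single drugs it stood at 5.26, 3.05 and 4.79 CPM (BRM), 3.96, 5.86 and 3.02 CPM (MTP), 3.61, 7.08 and 2.23 CPM (TAM) and 3.36, 5.92 and 4.95 CPM (DOX), beside 2.27 to 2.73 CPM without light. The log2 change was -2.16 ± 0.4 with BMT (adjusted p = 0.00391) and -1.64 ± 0.39 with MDB (adjusted p = 0.0219), and between -1.54 ± 0.35 (DOX) and -1.67 ± 0.35 (MTP) with single drugs. The MDB call of Csf1 was lost without light replicate 1 or 2 or without any 1 MDB library (adjusted p up to 0.0856, range over 15 alternatives 0.000534 to 0.0856). The DOX call was lost without DOX replicate 1 or light replicate 2 (range 0.000415 to 0.0776), and the TAM call in a fit of only the groups compared (adjusted p = 0.0711).

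Cxcl16 stood nearer to its no-light level than to its light level with both mixtures. Its libraries stood at 7.85, 8.1 and 6.15 CPM with BMT and at 7.95, 6.81 and 8.12 CPM with MDB, and the no-light libraries at 6.41 to 8.05 CPM. With single drugs they stood at 8.52, 8.72 and 9.4 CPM (BRM), 8.97, 8.81 and 9.75 CPM (MTP), 6.8, 9.23 and 6.74 CPM (TAM) and 7.72, 8.88 and 9.52 CPM (DOX), beside 6.61 to 7.19 CPM without light. The 3 BRM, 3 MTP and 3 DOX libraries all lay between the no-light and the light libraries. Log2 changes against light were -0.76 ± 0.15 (BMT), -0.71 ± 0.15 (MDB), -0.49 ± 0.12 (BRM), -0.44 ± 0.12 (MTP), -0.7 ± 0.13 (TAM) and -0.53 ± 0.12 (DOX). None of these 6 calls of Cxcl16 held with the authors' FPKM of Cxcl16-001, where the BRM value was 0.12 (adjusted p = 0.829, range over 15 alternatives 0.00579 to 0.885). The MTP call was lost without any 1 MTP or light library (range 0.0187 to 0.607), and the BRM call without light replicate 1 or 2 or BRM replicate 1 or 2. The DOX call was lost without light replicate 1 or 2 or DOX replicate 1, and the MDB call without light replicate 2 or MDB replicate 2.

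Ccl2 fell to a few counts with the mixtures. With BMT it stood at 0.0908, 0.0395 and 0 CPM, 3 counts against 184 after light alone, a ratio of 0.0171 (interval 0.00349 to 0.0507, adjusted p = 0.000273). With MDB it stood at 0.23, 0.154 and 0.145 CPM, at -3.87 ± 0.57 on the log2 scale (adjusted p = 0.00127). With MTP it stood at 0.524, 0.0558 and 0 CPM, at -4.36 ± 1.23 (adjusted p = 0.034), a call that was lost without any 1 light library and without MTP replicate 2 or 3 (range over 15 alternatives 0.00742 to 0.114). With a replicate block that call was lost too (adjusted p = 0.0542). BRM held Ccl2 at 0.244, 0.278 and 0.564 CPM, all far under the light range of 3.31 to 4.67 CPM, and missed the threshold in edgeR at -3.41 ± 1.12 (adjusted p = 0.054). DESeq2 (0.0391), limma voom (0.0302), a fit of only the groups compared (0.000469) and the authors' FPKM with a pseudocount of 1 (0.0127) called it, and the range over 15 alternatives was 0.000469 to 0.162. TAM (0.252, 1.63 and 0.186 CPM) and DOX (0, 1.19 and 2.48 CPM) had uneven libraries, and neither was called by edgeR (adjusted p = 0.166 and 0.289). Ccl2 with TAM was called in 1 of 15 alternatives, the authors' FPKM with a pseudocount of 1 (range 0.0221 to 0.436), and with DOX in 1, limma voom (range 0.0441 to 0.54).

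Ccl12 was called lower with BMT, MDB and BRM. It stood at 0.681, 0.435 and 0.111 CPM with BMT (-2.97 ± 0.54, adjusted p = 0.00344) and at 0.138, 0.154 and 0.532 CPM with MDB (-3.56 ± 0.57, adjusted p = 0.00215). With BRM it stood at 0.584, 0.278 and 0.752 CPM (-3.23 ± 0.77, adjusted p = 0.0122). The BRM call of Ccl12 was lost without BRM replicate 2 (adjusted p = 0.0641, range over 15 alternatives 0.000394 to 0.0641). MTP gave 1.63, 1.45 and 0.545 CPM and DOX 2.41, 2.0 and 2.05 CPM, under all 3 light libraries but not called by edgeR (adjusted p = 0.0784 and 0.24). Ccl12 with MTP was called by DESeq2, by limma voom and in a fit of only the groups compared (range over 15 alternatives 0.0135 to 0.226), and with DOX in the last of these (range 0.0206 to 0.412). The DOX libraries were even, and all lay above those of BRM and MTP. With TAM the values were 0.756, 6.82 and 0.371 CPM, so replicate 2 lay above every light library and the others far below them.

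TAM replicate 2 stood above the other TAM libraries on each raised gene. It was above every other single-drug library for Ccl12, Cxcl10, Csf1 and Vcam1. It stood at 41.8% (Ccl2), 35.8% (Icam1) and 74.8% (Cxcl16) of the light mean, under the 63.6%, 57.7% and 77.2% of DOX replicate 3. Over the 7 genes that light raised in that experiment its level had a median of 52.2% of the light mean, against 14.9% and 9.38% in TAM replicates 1 and 3 and 49.8% in the highest of the other single-drug libraries, DOX replicate 3. It held 284 CPM of the astrocyte list with Gfap, the highest of the TAM libraries. Without it Ccl12 was lower with TAM at -3.19 (adjusted p = 0.000458), Cxcl10 was called with 0 counts in both remaining TAM libraries (adjusted p = 0.000521), and 6 of the 9 members were called in place of 4. The library was singled out on these same genes, so the fit without it describes its weight and is no test of TAM. The share of all genes called in that fit is not given here, so the higher count is not shown to be particular to the members. Over all alternatives the adjusted p of Ccl12 with TAM ranged from 0.000458 to 0.809, and that of Cxcl10 from 0.000521 to 0.25. TAM replicate 1 had the lowest total of all libraries, 12.0 M.

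**Figure D4:**
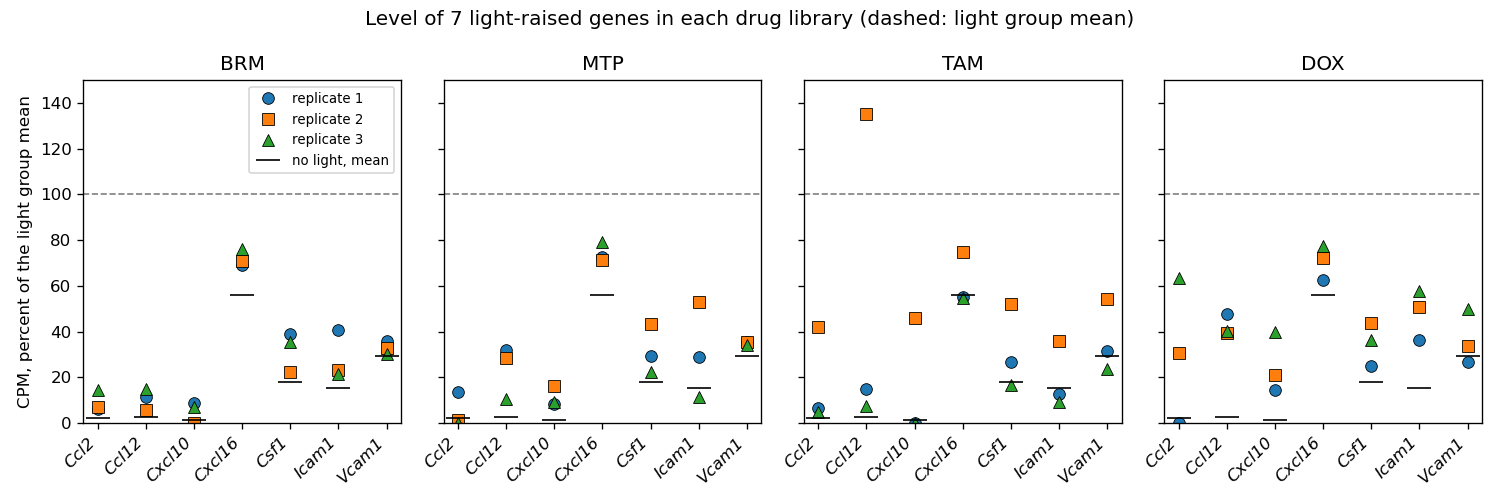
Level of the 7 genes that light raised in the single-drug experiment, as percent of the light mean (vertical axis), in each library of the 4 single drugs; short lines are the no-light means and the dashed line is the light mean. TAM replicate 2 is the highest TAM library for each gene, and for Ccl12 it reaches 135% of the light mean.

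Cxcl10, the interferon-induced chemokine, was called lower with BMT, BRM and MTP. It stood at 0.0908, 0.0395 and 0.111 CPM with BMT (-4.59 ± 1.11, adjusted p = 0.016), at 0.244, 0 and 0.188 CPM with BRM (-4.18 ± 1.02, adjusted p = 0.014) and at 0.233, 0.446 and 0.248 CPM with MTP (-3.14 ± 0.94, adjusted p = 0.0453). All of these lay far under the light ranges of 1.8 to 2.2 and 2.28 to 3.08 CPM. The BMT call was lost without any 1 BMT library (adjusted p from 0.000705 to 0.0554 over 15 alternatives), the BRM call without BRM replicate 2 or 3 or light replicate 2 (0.00144 to 0.064), and the MTP call without any 1 light or MTP library (0.00232 to 0.147). With every library kept, the MTP call was also lost without the filter (0.051), with a replicate block (0.0528) and for the authors' FPKM with a pseudocount of 0.1 (0.0641). MDB held Cxcl10 at 0.0919, 0.256 and 0.193 CPM, at -3.44 ± 1 (adjusted p = 0.0528), and was called under 6 of 15 alternatives, among them the lens fibre score as a covariate (range 0.00113 to 0.17). DOX gave 0.392, 0.573 and 1.09 CPM, at -2.01 ± 0.86 (adjusted p = 0.138), and was called by limma voom, in a fit of only the groups compared and by the authors' FPKM with a pseudocount of 1 (range 0.0152 to 0.351). TAM gave 0, 1.26 and 0 CPM, at -2.58 ± 0.91 (adjusted p = 0.0836), and was called in 4 of 15 alternatives. Every treated library lay under every light library of its experiment.

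Icam1 was called lower with BMT, BRM, MTP and TAM. It stood at 0.227, 0.514 and 0.277 CPM with BMT (-2.2 ± 0.43, adjusted p = 0.00541) and at 0.827, 0.409 and 0.58 CPM with MDB, which edgeR did not call (-1.38 ± 0.41, adjusted p = 0.058). Icam1 with MDB was called by limma voom and in a fit of only the groups compared (range over 13 alternatives 0.0205 to 0.197). With single drugs it stood at 1.07, 0.611 and 0.564 CPM (BRM), 0.757, 1.39 and 0.297 CPM (MTP) and 0.336, 0.944 and 0.247 CPM (TAM), with log2 changes of -1.82 ± 0.52, -1.7 ± 0.52 and -2.31 ± 0.54. With DOX it stood at 0.952, 1.34 and 1.52 CPM, the highest of the 4 single drugs, at -1.07 ± 0.5 (adjusted p = 0.169). No treated library reached the lowest light library. The adjusted p was 0.0291 with BRM, 0.0481 with MTP and 0.0134 with TAM. The MTP call was lost without any 1 light library and without MTP replicate 1 or 3 (range over 15 alternatives 0.00991 to 0.156). With every library kept it was also lost without the filter (0.0608) and with the lens fibre score as a covariate (0.0819). The same held in a fit of only the groups compared (0.0696) and for the authors' FPKM with a pseudocount of 0.1 (0.0884). The BRM call was lost without any 1 light library and without BRM replicate 2 or 3 (0.00682 to 0.112), and the TAM call without TAM replicate 1 or 3 (0.00128 to 0.0845). With every library kept, the BRM call was lost for that FPKM (0.0756) and the TAM call in a fit of only the groups compared (0.0586).

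Ccl3 had no call with any treatment under any alternative, and Ccl4 had none by edgeR with all libraries. Ccl3 ranged from 12.6 to 18.2 CPM with BMT and from 3.68 to 9.65 CPM with MDB, and from 7.14 to 15.3 CPM over the 12 single-drug libraries, beside 2.85 to 14.4 CPM after light in the mixture experiment. All MDB libraries lay under all BMT libraries for Ccl3, with a log2 difference of 1.35 ± 0.49 for BMT over MDB, which was not called (adjusted p = 0.198, range over 15 alternatives 0.0521 to 0.596). Ccl4 was lowest with MDB, at 2.3, 0.614 and 1.3 CPM against 2.8 to 4.09 CPM after light (-1.3 ± 0.39, adjusted p = 0.0598). It was called by DESeq2 (adjusted p = 0.016), by limma voom (0.0305) and without MDB replicate 1 (0.0146), and the range over all 15 alternatives was 0.0146 to 0.182. Cxcl1 was listed at 0, 0.0395 and 0 CPM with BMT and at 0 in all 3 MDB libraries. With MDB, 0 counts against 10 after light alone gave a ratio of 0 (interval 0 to 0.493). With single drugs Cxcl1 stood at 0, 0.0555 and 0.141 CPM (BRM), 0.0582, 0.223 and 0.149 CPM (MTP), 0.084, 0.21 and 0 CPM (TAM) and 0, 0 and 0.0476 CPM (DOX). Against the 17 counts after light alone these were 4, 8, 5 and 1 counts. MTP and TAM libraries overlapped with the light libraries, and with ratios of 0.59 (interval 0.22 to 1.44) and 0.433 (0.125 to 1.22) a difference was not detectable at this depth.

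**Figure D5:**
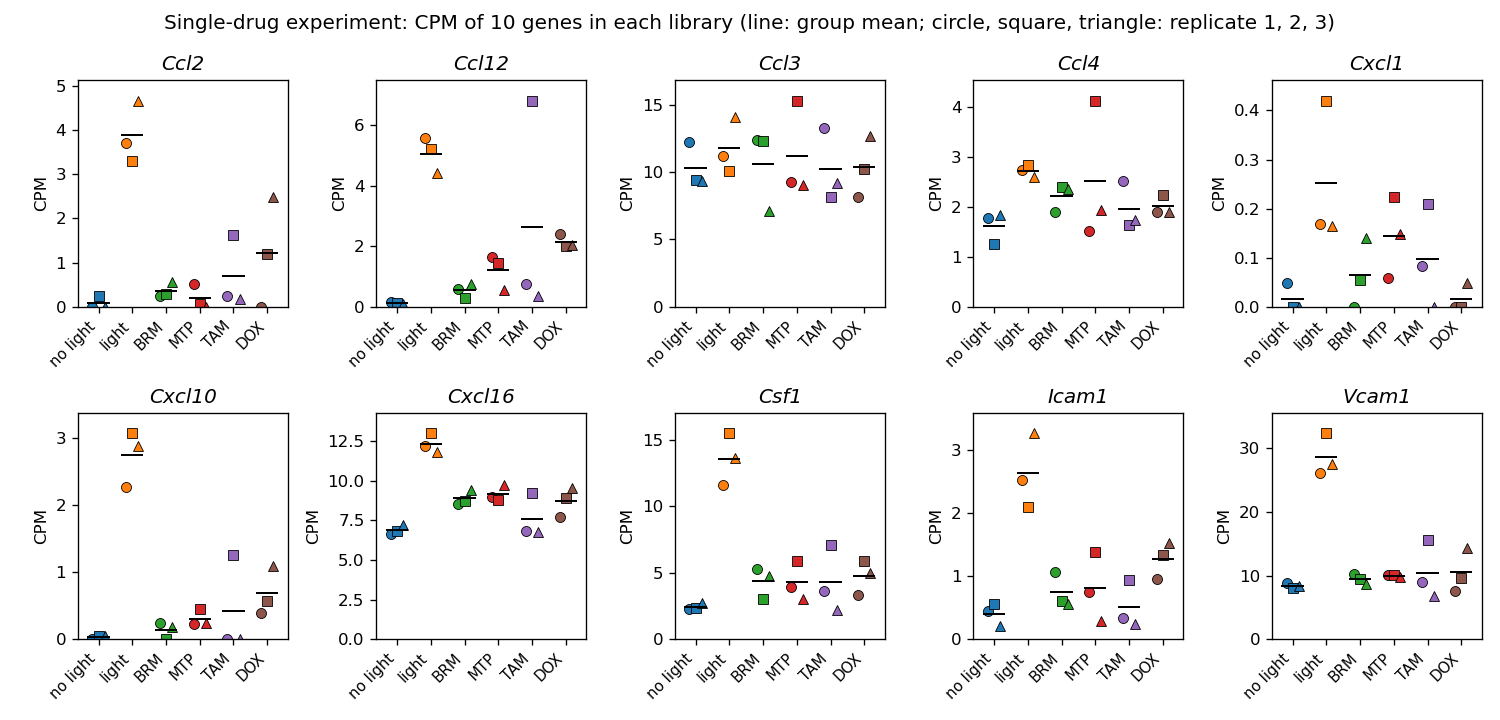
Expression of the 10 genes in the single-drug experiment, in CPM (vertical axis, own scale for each gene), with 1 point per library and a line at each group mean. Ccl2, Csf1, Icam1, Vcam1, Cxcl10 and Cxcl16 have all 12 drug libraries under the light libraries, and for Ccl12 TAM replicate 2, at 6.82 CPM, lies above them.

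A further comparison asks how far the treated retinas were from those that saw no light. No member was called against no light with any of the 6 treatments, and neither was any other gene by edgeR (0% of the genes tested). At an unadjusted p under 0.05 there were 1009 genes with BMT, 1642 with MDB, 2535 with BRM, 1395 with MTP, 1327 with TAM and 2110 with DOX, and among the 9 members 2, 3, 2, 3, 4 and 6. DESeq2 called 13, 22, 381, 3, 7 and 11 genes in these comparisons, with Ccl12 after TAM as the only member, and limma voom called 1 gene, with BRM. The median log2 difference of the members from no light was 0.04 with BMT, 0.05 with MDB, 0.82 with BRM, 0.8 with MTP, 0.36 with TAM and 0.93 with DOX, beside values between -0.012 and 0.011 over all genes. Ccl12 lay above its no-light libraries in every one of the 18 treated libraries, but some of these gaps rest on very few counts. In BMT replicate 3 Ccl12 had 2 counts, and in MDB replicates 1 and 2 it had 3 each, against 1, 2 and 2 without light. Its log2 difference from no light was 2.27 ± 0.73 with BMT, 1.68 ± 0.77 with MDB, 1.98 ± 0.98 with BRM, 3.12 ± 0.93 with MTP, 4.29 ± 0.91 with TAM and 3.94 ± 0.91 with DOX, with adjusted p from 0.283 to 0.787. A fit of only the DOX and no-light groups called Ccl12 (3.96, adjusted p = 0.0152, range over its alternatives 0.0152 to 0.736), and DESeq2 called it with TAM (4.36, adjusted p = 0.00255, range 0.00255 to 0.859). Csf1 differed from no light by 0.09 ± 0.41 (BMT) to 0.93 ± 0.36 (DOX), Vcam1 by -0.06 ± 0.22 (BMT) to 0.32 ± 0.25 (TAM), Cxcl16 by 0 ± 0.15 (BMT) to 0.41 ± 0.13 (MTP) and Icam1 by 0.36 ± 0.59 (TAM) to 1.6 ± 0.55 (DOX). Ccl3 stood between -1.31 ± 0.49 (MDB) and 0.11 ± 0.27 (MTP) and Ccl4 between -0.74 ± 0.39 (MDB) and 0.63 ± 0.32 (MTP). For Ccl2 and Cxcl10 the adjusted p was 0.286 or more. In the DOX group Ccl12 stood at 42.4% of its light mean, with libraries between 39.4% and 47.5%, against 2.58% without light.

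The treatments were also compared with each other. Between BMT and MDB 0 of the 9 members and 0 genes differed by edgeR (3001 genes and 2 members at an unadjusted p under 0.05, 617 genes by DESeq2 and 0 by limma voom). Those 2 members were Ccl3, above, and Ccl2, which was lower with BMT than with MDB by -1.84 ± 0.82 on the log2 scale (adjusted p = 0.26). For Ccl4, Ccl12, Cxcl10, Cxcl16, Csf1, Icam1 and Vcam1 the adjusted p lay between 0.325 and 0.867. Among BRM, MTP, TAM and DOX, 1 joint test in place of 6 pairs called 0 members and 0 genes (2181 genes at an unadjusted p under 0.05, 346 by DESeq2 and 0 by limma voom). Ccl12 had the smallest p of the members in that test (unadjusted p = 0.0413, adjusted p = 0.358), and Ccl2, Ccl3, Ccl4, Cxcl10, Cxcl16, Icam1, Vcam1 and Csf1 lay between 0.537 (Ccl2) and 0.992 (Csf1) after adjustment. Differences in the number of calls against light are therefore not shown to be differences between treatments.

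The authors' deposited tables of changed transcripts, which test all groups of an experiment in 1 F test, hold Ccl2, Ccl12, Csf1 and Vcam1 for the mixture experiment (adjusted p = 0.0144, 0.0253, 0.00875 and 0.00322). For the single drugs the authors' deposited table holds Csf1, Vcam1 and Cxcl10 (adjusted p = 0.00473, 0.00355 and 0.042). The log2 fold changes against light in the authors' deposited table were -5.66 for Ccl2 and -3.43 for Ccl12 with BMT, and -3.91 and -3.64 with MDB. For Cxcl10 the authors' deposited table gives -4.61 with BRM, -3.18 with MTP, -4.32 with TAM and -2.11 with DOX.

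Other genes of these pathways were counted against the share of all genes called for light in either direction, 13.2% in the mixture and 24% in the single-drug experiment. Of 27 other chemokines, 8 passed the filter in the mixture experiment, 0 rose with light and 1 fell, Cxcl14 (-0.65 ± 0.14, adjusted p = 0.0114). Of the same list 10 passed in the single-drug experiment and 2 rose: Cxcl13, a B cell chemokine, at 1.68 ± 0.34 (adjusted p = 0.00219), and Ccl7, another Ccr2 ligand, which had 0 counts in all 6 no-light libraries and 0.579 to 0.886 CPM in the single-drug light libraries (adjusted p = 0.00562). Of 22 chemokine receptors 8 were tested in each experiment, and 0 were called. Xcr1 (adjusted p = 0.263) and Ackr1 (0.569) were among those not called in the mixture experiment. Likewise Cx3cr1, the receptor for fractalkine on microglia, stood there at 0.24 ± 0.26 on the log2 scale (adjusted p = 0.603). Of 9 colony-stimulating factors and receptors, Kitl alone was called, higher in both experiments (0.44 ± 0.11 and 0.7 ± 0.19), among 6 and 7 tested. Il34, the second ligand of Csf1r, stood at 0.47 ± 0.17 (adjusted p = 0.104), and the receptor Csf1r at -0.36 ± 0.3 (adjusted p = 0.482). The Kitl call of the mixture experiment was lost in 7 of 15 alternatives and that of the single-drug experiment in 2, without no-light replicate 1 or light replicate 2.

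Among the partners of the adhesion molecules, of 12 leukocyte integrins and selectin ligands 8 were tested, and 2 rose with light in the mixture experiment: Itga4, the alpha-4 chain of the Vcam1 receptor, from 11.8 to 15.6 CPM to 19.5 to 22.2 CPM (0.62 ± 0.12, adjusted p = 0.00436), and Itgax (2.18 ± 0.65, adjusted p = 0.0477). In the experiment with single drugs Itga4 (0.86 ± 0.17), Itgax (1.78 ± 0.57) and the hyaluronan receptor Cd44 (2.86 ± 0.89) rose, and Selplg, a selectin ligand, fell (-1.76 ± 0.56). The Itgax call was lost in 9 of 13 alternatives in the mixture and 6 of 13 in the single-drug experiment, and the calls of Selplg in 7 of 13 and of Cd44 in 4 of 15. Cd44 lost its call only without single libraries (no-light replicate 2 or 3, light replicate 1 or 2), and the others also under fits that kept every library. Of 15 other adhesion molecules, Mcam rose (1.28 ± 0.16 and 1.21 ± 0.33) and Jam2 fell (-0.76 ± 0.09 and -0.83 ± 0.11) in both experiments, among 10 and 11 tested, and Jam3 and Alcam rose in the single-drug experiment, calls lost in 7 and 8 of 15 alternatives. Jam2, a junction protein, went from 152 to 179 CPM without light to 93.8 to 110 CPM after it in the mixture experiment. It was higher with each of the 6 treatments than after light alone, by 0.55 ± 0.11 (DOX) to 0.82 ± 0.09 (BMT), where Vcam1 was lower. Of the 5 genes of ectodomain shedding, such as Adam10 and Adam17, 0 were called for light in either experiment by edgeR. Adam10 stood at -0.3 ± 0.09 in the mixture experiment (adjusted p = 0.0618) and was called lower there by DESeq2 (0.0231) and without no-light replicate 3 (0.0306), with a range over 15 alternatives of 0.0231 to 0.204. It was higher with BMT than after light alone.

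How far the 10 genes followed each other can be described over the 30 libraries, after removal of each experiment's mean. These points share the light contrast, library depth and lens content, so the values carry no p. Vcam1 and Csf1 had the highest correlation of log2 CPM, r = 0.918, followed by Vcam1 and Cxcl16 at 0.907. Ccl2, Ccl12, Cxcl10, Cxcl16, Csf1, Icam1 and Vcam1 correlated with each other at 0.728 to 0.918. Ccl3 stood apart from these 7, at -0.238 to -0.116, and its highest value was with Ccl4, at 0.519. Among the 15868 genes that passed the filter in both experiments, and leaving out the members, the most similar to Ccl12 were Stat3 and Fosl1 (both 0.965) and Ipo5 (0.957), those to Csf1 were Cd9 (0.958), Rras (0.956) and Cp (0.955), and those to Vcam1 were Aldh1l1 (0.961), Parp12 (0.958) and Mpp6 (0.955). Cxcl10 was closest to Akap12 (0.901), Gbp5 (0.891) and Cdkn1a (0.89), Ccl2 to Lcn2 (0.909), Tpm3-rs7 (0.903) and Pde2a (0.89), Cxcl16 to Sulf2 (0.934), Rassf4 (0.931) and Cd9 (0.925), and Icam1 to Tspan4 (0.919), Irf8 (0.892) and Nme2 (0.89). For Ccl3 and Ccl4 the closest genes were lower, AA465934 at 0.824 and Pcdhb11 at 0.736.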

How the data were processed

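Neural retina RNA was made into strand-marked poly(A) libraries, 3 per group. The submitters' processing notes name Trimmomatic, Bowtie2, TopHat2, eXpress, edgeR and limma with the build GRCm38.p3, and their versions were not at hand. Expected counts per transcript, not normalized, are what the authors deposited from eXpress. The deposited FPKM tables come from eXpress directly, or were scaled by TMM by the authors for filtered transcripts. Transcripts called by the authors come with log2 fold changes against light and the adjusted p-value of an F test, per the file headers.

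Expected counts of 102906 transcripts were summed per gene and rounded. Genes passing filterByExpr were scaled by TMM and tested with edgeR 4.0.16 (quasi-likelihood, two-sided, R 4.3.3), all groups of an experiment in 1 fit without covariates, with Benjamini-Hochberg adjustment over all genes of a comparison and a threshold of 0.05. SE is the absolute log2 fold change over the square root of F. There were 17 comparisons. Ratios of summed counts carry exact 95% intervals for counting error. Log2 CPM for correlations used a prior count of 1. The test code was checked on simulated data. The text names the 10 members (Cxcl1 by its counts only, as it was not tested), with 4 genes of each further list (those of lowest adjusted p in the mixture light comparison), every gene behind a count of 5 or fewer, and the 3 genes most similar to a member. One gene under this rule is not reported here. Members, lists and this rule were chosen with earlier results of these data known. Reads shared between transcripts were divided by eXpress as estimates. Alternatives were RLE scaling, no filter, DESeq2 1.42.0, voom of limma 3.58.1, a replicate block, a covariate for the lens fibre score, a fit restricted to the groups compared, FPKM per transcript from the authors' normalized tables (limma, pseudocount 1 or 0.1, the transcript with the highest mean), and each library left out in turn.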

Additional observations from a re-analysis of the deposited data

How the results depend on the processing

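For the 9 tested genes in the light comparisons and in those of each treatment with light, 579 values kept direction and side of the threshold under alternatives that kept every library, 31 lost a call, 28 gained one and 4 changed sign; the cause was not tested. The sign changes were Cxcl16 with BRM from the authors' FPKM (0.12 and, at the smaller pseudocount, 0.15, adjusted p = 0.885) and, with the lens fibre score as a covariate, Ccl3 (0.07) and Ccl4 (0.12) with MTP; none of these values was called. Counts of called members also moved, and shares over all genes are not given for these fits. A moved count is therefore not shown to be particular to the members. With MDB against light the count was 8 by limma voom and 3 by FPKM with a pseudocount of 0.1, against 5. With MTP it was 3 without the filter and 3 by that FPKM fit, against 6. With DOX it was 5 by limma voom, against 3, and with TAM it was 0 in a fit of only the groups compared, against 4. Against no light, Ccl12 alone was called, with TAM by DESeq2 (1 member) and with DOX in a fit of only the groups compared (1 member). Leaving out 1 library gave 6 to 7 members for light in the mixture and 7 in the single-drug experiment, 6 to 7 with BMT, 3 to 5 with MDB, 2 to 5 with BRM, 2 to 3 with MTP, 3 to 6 with TAM and 1 to 3 with DOX; the MDB count was 3 without light replicate 2 or MDB replicate 2, the BRM count 3 without light replicate 2 and 2 without BRM replicate 2, the MTP count 2 or 3 without any 1 light or MTP library, and the DOX count 1 without light replicate 2 or DOX replicate 1. Under those fits Ccl3 changed sign with MTP (-0.38 to 0.07) and BRM (-0.29 to 0.07), and Ccl4 with MTP (-0.68 to 0.14); none of these was called. Same-numbered libraries correlated at -0.22 to 0.56 in the mixture and -0.26 to 0.44 in the single-drug experiment, with means of 0.01 and 0. Libraries of other numbers had means of -0.01 and 0. Of 12 and 18 libraries, 3 and 6 correlated best with their own number. These values gave no sign that the numbers pair samples, but r over all genes tested, without a test, cannot exclude it. With the replicate block 69 of 72 values were on the same side; Cxcl10 (-3.2, adjusted p = 0.0528) and Ccl2 (-4.27, 0.0542) with MTP were lost and Cxcl10 with MDB was gained (-3.63, 0.0425). Depth limits Ccl2, Cxcl1, Cxcl10 and Ccl12 most, at under 10 counts in some groups.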
